A study of Mus musculus with 20 samples.

Results

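α-Catenin KO was compared with CTRL in mouse nephron progenitor cells (NPCs) held in high CHIR, using the 2 α-catenin KO and 3 CTRL libraries at that dose, which are 5 of the 20 messenger RNA libraries of the series. They were selected by their labels alone, with no measured value. All cells were primary NPCs of the developing mouse kidney at E16.5 from Cas9-eGFP embryos, so every group carried Cas9 and eGFP. Each culture received guide RNA and mCherry mRNA by lipofection, was left for a knockout period of 48 h, and then spent 24 h in CHIR, at 1.25 µM (low) or 5 µM (high), before mCherry-positive cells were sorted. CTRL received a guide against GFP, α-catenin KO a guide against Ctnna1, and QCKO, a group used here for reference, guides against Cdh2, Cdh3, Cdh4 and Cdh11. The sorted cells were a transfected pool and not a clone, so each library can mix edited and unedited alleles. A bulk library also cannot tell fewer cells of a type from less RNA per cell. The replicate numbers 1, 2 and 3 stand for the 3 dates in the sample labels, and α-catenin KO was sequenced for dates 1 and 3 only. No label says that libraries came from separate litters, and p-values therefore measure the spread between these libraries.

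CHIR inhibits GSK3 and so stabilises β-catenin, which enters the nucleus and activates TCF/LEF target genes, as Wnt signalling does. At the membrane β-catenin binds the tails of cadherins, and α-catenin joins that complex to the actin cytoskeleton. In the kidney, Wnt signalling turns off the self-renewal genes of NPCs, turns on a nephron-forming program with Wnt4, Lhx1 and Jag1, and accompanies the aggregation of these cells into an epithelial vesicle. The comparison asks which transcripts differ when the link from the cadherin complex to actin is targeted while the Wnt stimulus is high.

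The 5 libraries held between 18379613 and 28472412 reads in genes. CTRL replicate 2, the control without an α-catenin KO library of its date, stood apart from the others. Its genes spread around their medians over the 7 high CHIR libraries of CTRL, α-catenin KO and QCKO with an interquartile range of 0.98 on the log2 scale, and the other 6 libraries had ranges of 0.27 to 0.44. In that library 762 of 16516 genes lay more than 1 log2 unit below all 6 others, and 702 lay more than 1 above them, whereas no other library had more than 115 genes below or 55 above. The summed normalised count of 124 ribosomal protein pseudogenes was 1366594 in CTRL replicate 2 and 450806 to 631086 in the other 6. Counts over all genes and many of the differences are therefore also given without it. Of the 31130 gene identifiers 4316 carry a symbol, since symbols come only from the authors' lists of differing genes, and genes without one are not named here. Those lists include lists for this same comparison. Named genes, and the members of gene lists that could be tested, are thus enriched for its differences from the start.

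**Figure D1:**
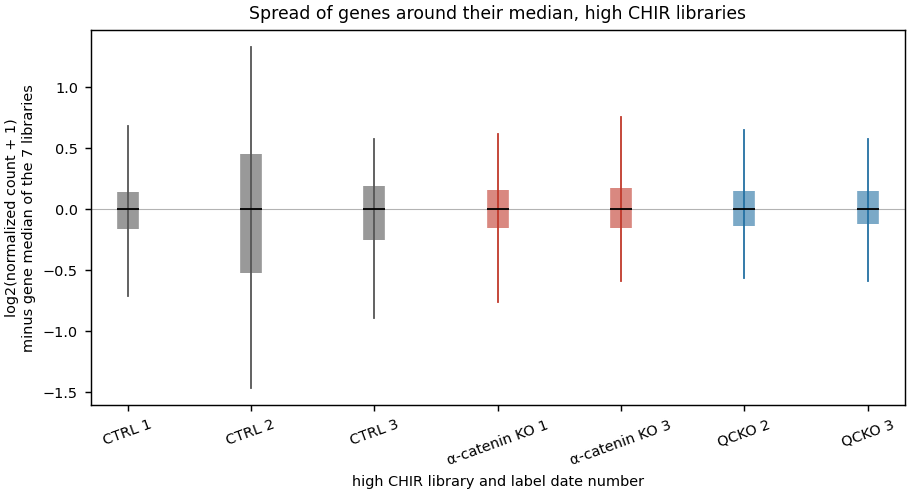
Log2(normalised count + 1) of each gene minus its median over the 7 high CHIR libraries, by library and label date number. Thick bars span the 25th to 75th percentile of 16516 genes, thin lines the 5th to 95th, and the black tick is the median; the interquartile range was 0.98 in CTRL replicate 2 and at most 0.44 in the others.

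Ctnna1, the gene that encodes α-catenin, had normalised counts of 9314, 5817 and 7624 in CTRL replicates 1, 2 and 3, and of 3564 and 3621 in α-catenin KO replicates 1 and 3. Both KO libraries lay below every CTRL library, at 38.3% of CTRL on date 1 and 47.5% on date 3. The log2 difference was -1.05 ± 0.20 (SE), and its adjusted p was 0.47 in limma, 0.0033 in DESeq2 and 4.1e-06 in DESeq2 with the label date as a block. Without CTRL replicate 2 the difference was -1.23, and limma with the date block then gave an adjusted p of 0.031. A 2-sided exact permutation test over the 5 libraries gave p = 0.2, where 0.1 is the smallest value the design allows. The transcript stayed well above 0, and these counts do not distinguish a cut allele that is still transcribed from an intact one. The same gene held 3599 and 3790 in the α-catenin KO libraries of low CHIR and 7749 to 10082 in their CTRL libraries, so the knockout lay below CTRL at both doses.

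Beyond the targeted gene, few transcripts passed a test after adjustment. The fit over all genes, limma on log2(normalised count + 1), called 0 of 16516 genes (0%) at an adjusted p under 0.05 and a log2 difference over 0.5. That fit did not call Ctnna1 either, so 0 calls, here and for the lists below, cannot show that no other transcript differed. With no adjustment, p was under 0.05 for 627 genes that were higher in α-catenin KO (3.8%) and for 301 that were lower (1.82%). Without CTRL replicate 2 those shares were 2.11% and 0.811%. In 1503 genes (9.1%) both KO libraries lay above all 3 CTRL libraries, and in 1127 (6.82%) below them. DESeq2, the test named in the study's methods but run here on recovered reads of 14 libraries, called 4 of 16511 genes (0.0242%). With the label date as a block it called 12 of 16516 (0.0727%), of which 11 were higher in α-catenin KO and Ctnna1 was lower. The study's own run, described with 2 biological replicates, reported only Ctnna1 for this comparison. edgeR called 0 genes with or without the block, and had 946 genes at an unadjusted p under 0.05 without it. Leaving out CTRL replicate 2 gave 7 DESeq2 calls, and 23 with the date block. Of those 23 genes, 21 were higher in α-catenin KO, and 11 were among the 12 called with all libraries.

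Serpinb7, a serine protease inhibitor of the serpin family, had the largest difference among the genes called by DESeq2 without a date block. Its normalised counts were 68.0, 37.4 and 72.9 in CTRL, and 959.6 and 415.5 in α-catenin KO. The lower KO library stood at 570.0% of its date-matched control, and the groups did not overlap. The log2 difference was 3.45 ± 0.52 (SE), and the adjusted p was 0.33 in limma and 7.3e-08 in DESeq2. In low CHIR Serpinb7 had 0 normalised counts in all 3 CTRL libraries and 0 and 0.8 in α-catenin KO, so it was detected almost only in high CHIR. QCKO in high CHIR had 264.4 and 566.7, values between the CTRL and the upper KO library. The DESeq2 adjusted p of Serpinb7 was 1.2e-06 with the date as a block and 7.7e-07 without CTRL replicate 2. With both changes it was 0.46, at a log2 difference of 3.26.

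Cpm, which encodes a membrane-bound carboxypeptidase, had 794.9, 517.0 and 504.7 in CTRL and 1842 and 1159 in α-catenin KO. The KO to CTRL percentage was nearly equal on both dates, at 232% on date 1 and 230.0% on date 3. Its log2 difference was 1.30 ± 0.24 (SE), with an adjusted p of 0.0047 in DESeq2 and 0.47 in limma. In low CHIR Cpm was at 730.1 to 816.1 in CTRL and at 740.7 and 736.6 in α-catenin KO, so no separation was seen at that dose. QCKO in high CHIR had 1583 and 1226 of Cpm. The gene ENSMUSG00000032327, which has no symbol here, was the remaining call of DESeq2. It had 292.6, 403.7 and 201.4 in CTRL and 927.4 and 1028 in α-catenin KO, a log2 difference of 1.76 ± 0.32 (SE), while low CHIR libraries of both groups held 148.4 to 228.8. Its QCKO libraries of high CHIR held 1018 and 774.3. This gene was also the only one called for a different KO effect in high and low CHIR, by DESeq2 with the date block and without CTRL replicate 2 (adjusted p = 0.027). With all libraries, limma, edgeR and DESeq2 called 0 genes for that interaction, and limma had 258 at an unadjusted p under 0.05.

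The windows upstream of Serpinb7, Cpm and Tpm1 are shown because these genes separated the groups and one of them was detected almost only under high CHIR. RefSeq windows were found for 6 of the 9 genes other than Ctnna1 that DESeq2 called with all libraries, with or without the date block, and that have a symbol. Each sequence below holds the 250 bases before the RefSeq start on GRCm38.p6, in the direction of the gene, and capitals mark the letters CTTTGA (a TCF/LEF core) or GGAATG (a TEAD core) on either strand. The TCF/LEF letters occur in 13.8% and the TEAD letters in 12.6% of all 32851 windows of this length, so a match is a description of the window and not a binding site.
Serpinb7, chr1:107422439-107422688, plus strand: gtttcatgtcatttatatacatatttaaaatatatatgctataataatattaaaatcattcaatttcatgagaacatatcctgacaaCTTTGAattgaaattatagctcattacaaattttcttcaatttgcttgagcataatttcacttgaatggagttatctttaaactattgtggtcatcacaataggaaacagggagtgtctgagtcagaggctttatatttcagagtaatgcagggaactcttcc
Cpm, chr10:117629250-117629499, plus strand: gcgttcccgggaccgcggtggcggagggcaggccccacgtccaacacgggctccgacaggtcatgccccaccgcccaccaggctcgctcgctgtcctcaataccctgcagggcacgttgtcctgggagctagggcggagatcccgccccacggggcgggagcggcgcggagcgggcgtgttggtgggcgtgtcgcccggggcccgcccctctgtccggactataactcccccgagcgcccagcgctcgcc
Tpm1, chr9:67049214-67049463, minus strand: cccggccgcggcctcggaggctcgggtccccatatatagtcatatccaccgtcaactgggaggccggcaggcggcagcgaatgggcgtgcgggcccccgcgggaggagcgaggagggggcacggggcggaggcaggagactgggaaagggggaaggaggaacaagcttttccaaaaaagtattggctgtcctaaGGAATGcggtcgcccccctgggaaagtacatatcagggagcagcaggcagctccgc
The TCF/LEF letters of the Serpinb7 window begin 163 bases before the start and the TEAD letters of Tpm1 56 bases before it. The Cpm window, rich in G and C, holds neither. Cxcl12 has the TCF/LEF letters on its other strand, 162 bases before the start, and the windows of Krt7 and Krt8 hold neither set of letters.

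**Figure D2:**
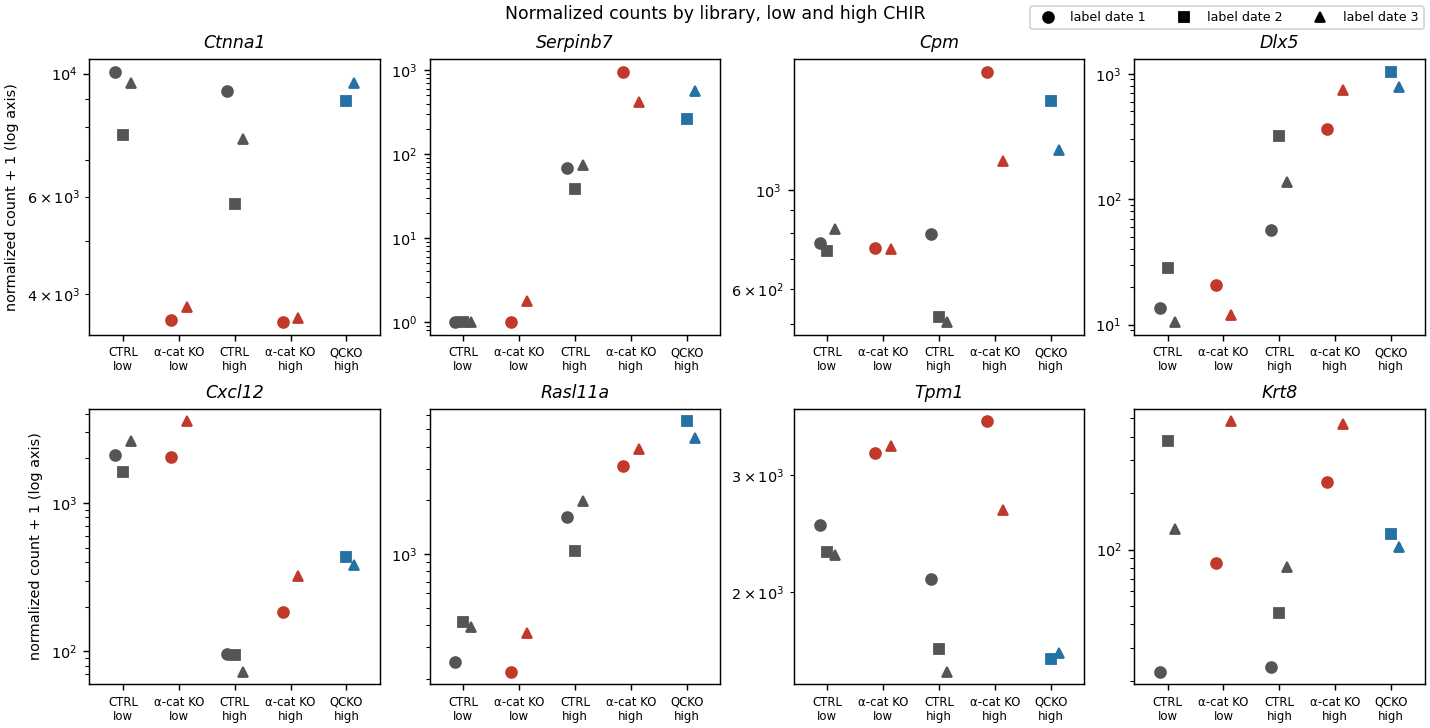
Normalised count + 1 on a log axis in each library of CTRL and α-catenin KO in low and high CHIR and of QCKO in high CHIR, for Ctnna1 and 7 genes described in the text. Each point is a library and its shape gives the label date; Serpinb7 is near 0 in low CHIR, and the α-catenin KO points of Tpm1 lie above those of CTRL at both doses.

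Among the other genes that separated the groups were a chemokine, a small GTPase, a transcription factor and a receptor kinase. Cxcl12, which encodes a secreted chemokine, had 95.3, 92.9 and 72.1 in CTRL and 184.2 and 322.7 in α-catenin KO. Its adjusted p was 0.042 in DESeq2 with the date block and 0.086 without it. The low CHIR controls held 1602 to 2594, so the KO libraries of high CHIR were above their own controls and far below that level. Dlx5, a homeobox transcription factor, had 55.6, 319.4 and 135.6 in CTRL and 359.4 and 744.3 in α-catenin KO. Its lowest KO value was close to the value of CTRL replicate 2, and the log2 difference was 1.94 ± 0.70 (SE) with that library and 2.56 without it. The adjusted p of Dlx5 was 0.72 in DESeq2, 0.00019 with the date block, and 0.021 without the block and without CTRL replicate 2. Rasl11a, a RAS-like small GTPase, had 1613, 1032 and 1988 in CTRL and 3115 and 3885 in α-catenin KO. It passed DESeq2 only with the date block and without CTRL replicate 2 (adjusted p = 0.00079). Kit, the receptor tyrosine kinase for stem cell factor, had 1877, 863.0 and 1670 in CTRL and 2149 and 4013 in α-catenin KO, and passed no test after adjustment. Ceacam1, a cell adhesion molecule, had 2.3, 1.1 and 0.8 in CTRL and 16.7 and 10.1 in α-catenin KO, a low level at which few reads carry the difference, and it too passed no test after adjustment. QCKO in high CHIR also lay above all 3 CTRL libraries in these genes. It held 433.4 and 379.7 of Cxcl12, 1038 and 783.7 of Dlx5, and 5547 and 4482 of Rasl11a. Kit had 3995 and 4585 in QCKO, and Ceacam1 8.5 and 8.4. The study reported Rasl11a as the only differing gene of CTRL against QCKO. Serpinb7, Cpm, Cxcl12, Rasl11a, Kit and Ceacam1 were listed with earlier results of these data known, so their direction is not independent evidence.

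Apart from Mxra8, the genes named next were chosen after their values were seen, from the 23 that DESeq2 called with the date block and without CTRL replicate 2. Ptch1, the receptor and a transcriptional target of Hedgehog signalling, had 1014, 1124 and 970.1 in CTRL and 1783 and 2022 in α-catenin KO, with no overlap. It was also called without the block once CTRL replicate 2 was left out (adjusted p = 0.041). Mxra8, a membrane protein with immunoglobulin domains, had 1124, 271.3 and 809.5 in CTRL and 2132 and 1819 in α-catenin KO. The log2 difference of Mxra8 was 1.65 with CTRL replicate 2 and 1.05 without it, and its adjusted p was 0.55 and 0.041 in turn in DESeq2. Maf, a basic leucine zipper transcription factor, had 519.4, 1423 and 419.2 in CTRL and 1193 and 1199 in α-catenin KO, and it was called only with the date block and without CTRL replicate 2, which held the highest value. Lmcd1, a LIM domain protein, had 421.9, 397.3 and 329.9 in CTRL and 1067 and 497.2 in α-catenin KO. QCKO in high CHIR held 1556 and 2243 normalised counts of Ptch1, 1692 and 1797 of Mxra8, 1046 and 1489 of Maf, and 578.3 and 702.3 of Lmcd1. The QCKO and α-catenin KO comparisons share their CTRL libraries, and the values are given side by side only.

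Among the 12 genes called with the date block were Krt8, Krt7 and Cdh1, which are expressed in epithelial cells. Krt8, an intermediate filament keratin of simple epithelia, had 22.7, 44.9 and 79.9 in CTRL and 229.3 and 465.9 in α-catenin KO. Krt7, its relative in ductal epithelia, had 0, 1.1 and 1.6 in CTRL and 10.3 and 51.4 in α-catenin KO. Cdh1, which encodes E-cadherin, had 24.9, 34.2 and 50.2 in CTRL and 77.3 and 309.6 in α-catenin KO. The groups did not overlap for any of the 3 genes, and their DESeq2 adjusted p with the date block was 1.2e-06, 3.6e-05 and 0.034 in turn. Without the block it was 0.72, 0.51 and 0.72. QCKO in high CHIR held 119.5 and 101.9 of Krt8, 16.9 and 11.2 of Krt7, and 128.0 and 254.4 of Cdh1. Krt8-ps, a pseudogene that could share reads with Krt8, was also called with the block and is uncertain. ENSMUSG00000047501, called with the block as well, had 12.5, 175.2 and 51.7 in CTRL and 63.1 and 197.7 in α-catenin KO, and the groups overlapped.

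These epithelial genes also moved with the label date in low CHIR. Krt8 had 21.4, 375.9 and 127.0 in the low CHIR CTRL libraries of dates 1, 2 and 3, and 84.3 and 482.0 in α-catenin KO of dates 1 and 3. Cdh1 had 34.8, 448.4 and 167.2 in those CTRL libraries and 35.3 and 296.2 in α-catenin KO. The low CHIR control of date 2 was thus above both high CHIR knockouts for Cdh1 and between them for Krt8. On both dates, and at both doses, α-catenin KO had more Krt8 than its date-matched CTRL. Krt7 did not, since in low CHIR it had 4.5 in CTRL and 2.6 in α-catenin KO on date 1, and 19.1 and 90.8 on date 3. Of the list of 19 epithelial and tight junction genes, 5 had an identifier and were tested, 4 of them were higher at an unadjusted p under 0.05 (beside 3.8% of all genes and 13.2% of the 3924 tested genes with a symbol), and 0 passed the adjusted test of limma. The median log2 difference of the 5 was 2.61, that of all genes 0.02 and that of tested genes with a symbol 0.08. Members entered only with a symbol, partly from the authors' lists for this same comparison. The count of 4 and the median are thus partly fixed by that choice. Markers of the ureteric epithelium, a neighbouring cell type of the embryonic kidney, were checked beside these epithelial genes. Of 10 such markers 5 had an identifier, and their summed level was 812.8 to 953.7 in CTRL and 993.1 and 1597 in α-catenin KO. Within that list Wnt11, a ureteric tip ligand, had 0 to 2.3 in CTRL and 9.0 and 5.0 in α-catenin KO, and Tfap2b had 13.6 to 21.2 and 12.9 to 24.2. Gata3, a transcription factor of the duct, had 353.8, 170.9 and 177.1 in CTRL and 340.1 and 701.9 in α-catenin KO. Hoxb7, a homeobox gene of the duct and the largest part of the sum, had 584.0, 624.8 and 749.1 in CTRL and 620.9 and 814.9 in α-catenin KO. Krt7 is in this list too. Low CHIR CTRL libraries held 25.4 to 73.7 of Gata3 and 218.7 to 387.8 of Hoxb7, so both rose with CHIR and their levels do not count ureteric cells alone. The part of ureteric cells in the keratin values was not tested.

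Of the remaining adhesion genes, those of the adherens junction showed no call. Ctnnd2, a δ-catenin of the p120 family, had 130.4, 263.8 and 167.7 in CTRL and 324.6 and 367.1 in α-catenin KO. Nectin2, an immunoglobulin-like adhesion receptor, had 399.2, 176.2 and 416.1 in CTRL and 523.0 and 930.8 in α-catenin KO. Actn4, an actin cross-linker that binds α-catenin complexes, had 3278, 728.4 and 2441 in CTRL and 3773 and 4283 in α-catenin KO, and its log2 difference was 1.16 with CTRL replicate 2 and 0.51 without it. The groups did not overlap for these 3 genes, but the smallest adjusted p was 0.70 in limma. Ctnnal1 and Pkp4 overlapped between groups, with log2 differences of 0.27 and -0.13, and of 0.06 and -0.19 without CTRL replicate 2. The list of 20 junction partners had 6 identified genes, of which 2 were higher and 1, Ctnna1 itself, was lower at an unadjusted p under 0.05, where 13.2% of all genes with a symbol were higher. The 2 were Actn4 and Nectin2, and neither passed it without CTRL replicate 2, where Ctnnd2 did instead. Both KO libraries lay above all CTRL libraries in 760 of the 3924 tested genes with a symbol.

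Of 10 listed cadherins 6 had an identifier and were tested, and the 5 other than Cdh1 overlapped between the groups, beside 760 of 3924 tested genes with a symbol that lay above CTRL without overlap and 438 below. Cdh4, a cadherin raised by CHIR, had 8840, 7757 and 7647 in CTRL and 8427 and 8147 in α-catenin KO, with a log2 difference of 0.04 and a 95% interval of -0.42 to 0.50. Cdh3, or P-cadherin, had 3588, 2557 and 3720 in CTRL and 3633 and 5497 in α-catenin KO, an interval of -0.49 to 1.41. Cdh2, the neural cadherin of NPCs, had 2439, 989.0 and 1359 in CTRL and 1447 and 2190 in α-catenin KO, with an interval of -0.54 to 1.06. Cdh11, a mesenchymal cadherin, had an interval of -0.78 to 0.35, and Cdh13, which lacks a cytoplasmic tail, of -0.55 to 0.90. A change of 2-fold was inside the interval for Cdh2 and Cdh3 and outside it for Cdh4, Cdh11 and Cdh13.

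The nephron-forming program that high CHIR turns on was present in α-catenin KO at levels that overlapped with CTRL for each of the 9 genes tested of 11 listed. Wnt4, the secreted inducer of the renal vesicle, had 5286, 4156 and 5401 in CTRL and 5212 and 5849 in α-catenin KO. Low CHIR libraries of both groups held 41.1 to 123.1, far below this spread. Lef1, a transcription factor and target of β-catenin, had 1118, 948.5 and 1465 in CTRL and 1279 and 1204 in α-catenin KO, with a log2 difference of 0.10 and a 95% interval of -0.40 to 0.60. Jag1, the Notch ligand of the renal vesicle, had 7444, 2725 and 13323 in CTRL and 5316 and 7704 in α-catenin KO, an interval of -1.77 to 1.74. Lhx1, a LIM homeobox factor of the renal vesicle, had 2785, 609.9 and 3850 in CTRL and 1645 and 1585 in α-catenin KO. Its interval of -2.36 to 1.93 was wide. Pax2, a kidney lineage factor, had a log2 difference of -0.24 and an interval of -0.99 to 0.52, Emx2 an interval of -2.08 to 2.26 and Ovol1 of -1.63 to 1.23. On both dates the KO libraries lay below their date-matched controls for Jag1, Lhx1, Emx2 and Pax2, and above them for Cdh3. Without CTRL replicate 2, the log2 differences of those 4 lower genes were -0.64, -1.02, -0.39 and -0.53 in turn. Of the 9 genes 0 had an unadjusted p under 0.05 in either direction, where 13.2% of tested genes with a symbol were higher and 6.27% lower. Without overlap, 760 of those 3924 genes lay above CTRL and 438 below.

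Self-renewal genes, which mark the uninduced progenitor, were low in both groups. Six2, the factor that keeps NPCs in self-renewal, had 69.2, 64.1 and 83.8 in CTRL and 41.2 and 63.5 in α-catenin KO, beside 943.1 to 1642 in the low CHIR libraries of both groups. The KO libraries lay below all 3 controls, KO replicate 3 by a small margin from CTRL replicate 2, and the log2 difference was -0.48 with a 95% interval of -1.12 to 0.15. Cited1, a transcriptional co-regulator of the youngest progenitors, had 360.6, 640.9 and 355.0 in CTRL and 383.9 and 339.9 in α-catenin KO. Eya1, a cofactor of Six2, had 1153, 662.2 and 456.1 in CTRL and 873.3 and 481.0 in α-catenin KO, and followed the dates. Meox2, a homeobox factor, had 47.6, 8.5 and 36.8 in CTRL and 30.9 and 20.2 in α-catenin KO. Its log2 difference was 0.00 with CTRL replicate 2 and -0.72 without it, and it was lower in all 4 date-matched pairs of the 2 doses. Osr1, Wt1 and Foxc2 had log2 differences of 0.02, -0.08 and -0.22 with that library, each with an interval that spanned 0, and of -0.33, -0.23 and 0.41 without it. Of the 7 genes 0 had an unadjusted p under 0.05, with or without CTRL replicate 2, where 3.8% of all genes were higher and 1.82% lower with it, and 2.11% and 0.811% without it. The low CHIR libraries of both groups, with Cited1 at 3369 to 6965 and Eya1 at 3427 to 4783, expressed the markers of the labelled NPCs.

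**Figure D3:**
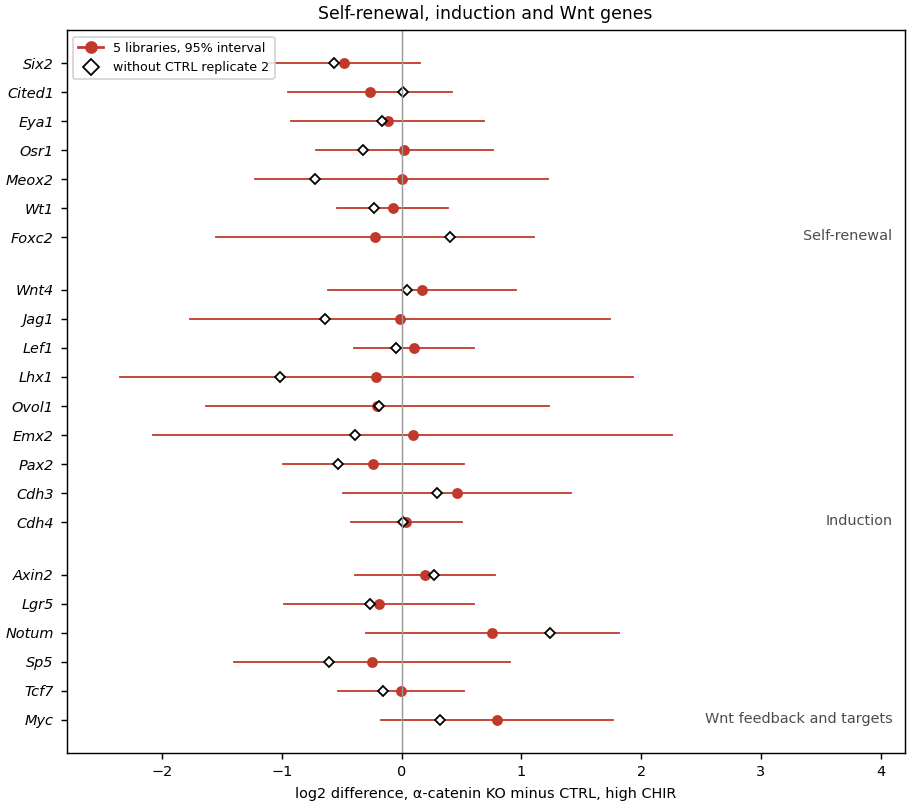
Log2 difference of α-catenin KO minus CTRL in high CHIR for genes of self-renewal, induction and Wnt feedback, with the 95% interval of limma over all 5 libraries (red) and the difference without CTRL replicate 2 (open diamonds). All intervals span 0; they are widest for Lhx1 and Emx2, and the diamonds of Jag1 and Lhx1 lie to the left of the red points.

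For each of the 6 tested direct targets of β-catenin and TCF/LEF, of 15 listed, the libraries of the groups overlapped, as they did in most genes (9.1% of all genes lay above CTRL without overlap and 6.82% below). Axin2, a negative regulator of the pathway and a general Wnt target, had 357.2, 434.7 and 391.0 in CTRL and 413.5 and 490.1 in α-catenin KO, with an interval of -0.39 to 0.78. Sp5, a transcription factor and Wnt target, had 56.7, 36.3 and 105.8 in CTRL and 52.8 and 48.4 in α-catenin KO, with an interval of -1.40 to 0.91. Tcf7 and Lgr5 had log2 differences of -0.01 and -0.19 with intervals that spanned 0. Notum, a secreted enzyme that inactivates Wnt, stood above its date-matched control in both KO libraries, with 102.1, 311.9 and 125.4 in CTRL and 211.3 and 341.9 in α-catenin KO. Its log2 difference was 0.76 with CTRL replicate 2 and 1.24 without it, and its smallest adjusted p under any setting was 0.13. In low CHIR Notum was near 0, with 3.6, 6.5 and 5.3 in CTRL and 1.7 in both α-catenin KO libraries. Myc, a growth regulator, had 359.5, 160.2 and 525.0 in CTRL and 407.0 and 720.1 in α-catenin KO, a log2 difference of 0.79 with CTRL replicate 2 and 0.32 without it. Of these 6 genes 0 had an unadjusted p under 0.05 in limma, and 1 (Notum) had it with the date block, and also without CTRL replicate 2. Of tested genes with a symbol 13.2% were higher and 6.27% lower at that p in limma, so the count of this list is near the background. In CTRL itself high CHIR did not raise all 6, since Myc and Lgr5 were lower in high than in low CHIR, by log2 differences of -2.39 and -0.90.

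The genes that respond to CHIR were then described as sets chosen in QCKO, whose libraries do not enter the α-catenin KO difference. High against low CHIR in QCKO called 432 genes raised and 382 lowered. In α-catenin KO against CTRL, the raised genes had a median log2 difference of 0.20, beside a median of 2.52 for their CHIR effect in QCKO, and the lowered genes had a median of 0.08 beside -2.15. The median over all 16516 genes was 0.02. For the same genes without CTRL replicate 2 the medians were 0.20 and 0.02. With an unadjusted p under 0.05, 11.1% of the raised genes were higher in α-catenin KO and 0.463% were lower, where all genes had 3.8% and 1.82%. Of tested genes with a symbol 13.2% were higher and 6.27% lower, so the share of higher genes was not above that background. The authors' lists that gave symbols include a list for CHIR in CTRL. Of the lowered genes 6.81% were higher and 2.36% lower. In 86.8% of the raised and 93.2% of the lowered genes the difference was under 1 log2 unit in size, and in 94.3% of all genes.

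Genes of the cytoskeleton and of the YAP pathway, which respond to adhesion and tension, had no call in limma. Tpm1, a tropomyosin that coats actin filaments and a target of SRF, had 2087, 1637 and 1516 in CTRL and 3611 and 2650 in α-catenin KO. It was also higher in low CHIR, at 2518, 2292 and 2271 in CTRL and 3236 and 3312 in α-catenin KO, so the groups did not overlap at either dose. QCKO in high CHIR had 1583 and 1616, the level of CTRL. The log2 difference in high CHIR was 0.84 ± 0.18 (SE), with an adjusted p of 0.046 in DESeq2 with the date block and 0.086 without it. Tpm2, another tropomyosin, had a log2 difference of -0.43. Ccn1, a matricellular protein and YAP target, had 599.9, 74.8 and 202.2 in CTRL and 1096 and 763.4 in α-catenin KO. QCKO in high CHIR had 706.3 and 1120. The log2 difference of Ccn1 was 2.13 with CTRL replicate 2 and 1.39 without it, and it was called only by DESeq2 with the date block and without that library (adjusted p = 0.046). Of 22 YAP targets 8 were identified, 7 of these had a positive difference, 3 (Ccn1, Myof and Tgfb2) had an unadjusted p under 0.05, and 1 (Ccn1) kept it without CTRL replicate 2. Their median log2 difference was 0.61 with that library and 0.43 without it. Of 17 SRF and actin genes 6 were identified and 5 had a positive difference, with Tpm1 alone at an unadjusted p under 0.05, with and without CTRL replicate 2, and 3 (Tpm1, Cnn2 and Fhl2) with the date block. The median of those 6 was 0.69 with that library and 0.34 without it. Of all 16516 genes 8610 had a positive difference. At that p 3.8% of all genes and 13.2% of the tested genes with a symbol were higher.

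Matched by label date, α-catenin KO can be set against CTRL in 4 pairs, at dates 1 and 3 in each dose. Of all genes 6.5% were higher in α-catenin KO in all 4 pairs and 5.37% were lower. Genes that were higher in all 4 included Tpm1, Krt8, Ccn1, Nectin2, Cdh3, Lamb2 and Kit. Those that were lower in all 4 included Ctnna1, Meox2, Lhx1, Lama4, Tpm2, Pcna and Tyms. Of 15 genes of the p53 response 8 were identified, and 7 of these were higher in all 4 pairs, beside 400 of the 3924 tested genes with a symbol. The differences were small. Cdkn1a, the p21 cell cycle inhibitor and the best known target of p53, had 1594, 2877 and 1458 in CTRL and 2969 and 2643 in α-catenin KO in high CHIR, so CTRL replicate 2 overlapped with the KO libraries. Zmat3, an RNA-binding target of p53, had 310.7, 275.6 and 377.7 in CTRL and 425.1 and 486.1 in α-catenin KO. Plk2, a polo-like kinase, had 857.3, 306.5 and 668.4 in CTRL and 1174 and 1245 in α-catenin KO, and was the only member at an unadjusted p under 0.05, a share of 8 genes near the 13.2% of tested genes with a symbol. It was also the member that was not higher in all 4 pairs. The median log2 difference of the 8 genes was 0.46, and 0 passed the adjusted test.

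**Figure D4:**
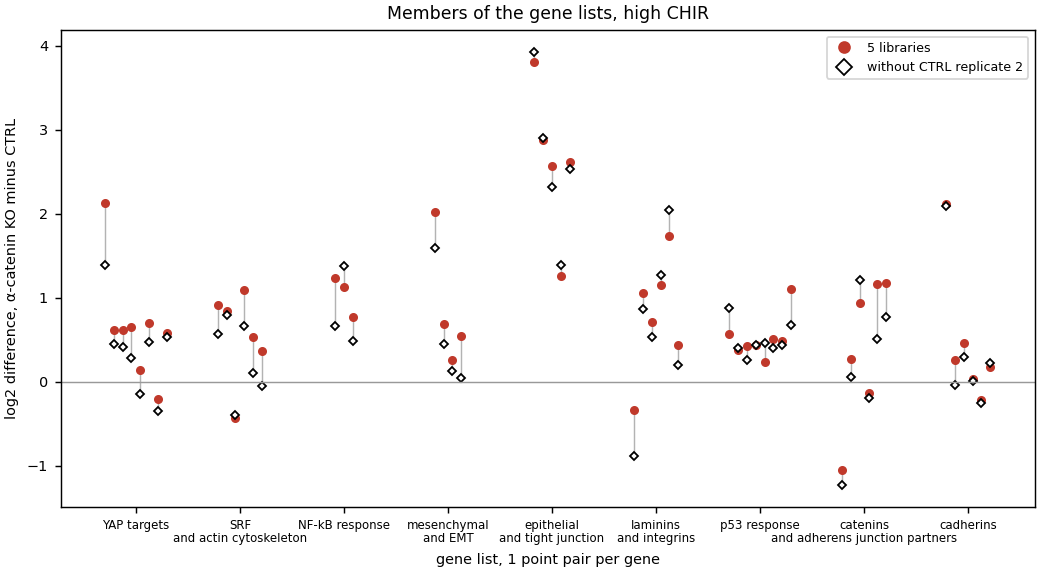
Log2 difference of α-catenin KO minus CTRL in high CHIR for the tested members of 9 gene lists, each gene with all 5 libraries (red) and without CTRL replicate 2 (open diamond). The epithelial list lies highest, with a median of 2.61, and many genes of the other lists move towards 0 without CTRL replicate 2. Members were tested only if they had a symbol from the authors' lists of differing genes.

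Of the smaller lists, laminins and integrins had 6 identified genes. Lamb2, a basement membrane laminin chain, had 127.0, 83.3 and 123.0 in CTRL and 161.0 and 324.7 in α-catenin KO, and Itgb4, the hemidesmosome integrin chain, had 22.7, 24.6 and 15.7 and then 39.9 and 55.5. Lama4 ran the other way, with 2195, 693.2 and 2123 in CTRL and 1226 and 1121 in α-catenin KO. Among genes of mesenchymal cells, Snai1, a repressor of E-cadherin, had 426.4, 64.1 and 60.3 in CTRL and 676.3 and 348.9 in α-catenin KO, so that CTRL replicate 1 lay above a KO library. Vim, the mesenchymal intermediate filament, had 13680, 4470 and 12040 in CTRL and 16095 and 10856 in α-catenin KO. Of 12 NF-kB genes 3 were identified. Nfkbia, the inhibitor that NF-kB induces, had 542.1, 143.1 and 413.0 in CTRL and 748.4 and 753.3 in α-catenin KO. Its log2 difference was 1.24 with CTRL replicate 2 and 0.67 without it. Icam1, an adhesion molecule that NF-kB induces, had 31.8, 40.6 and 17.2 and then 70.8 and 55.5. Nfkb2 overlapped between groups, with 47.6, 19.2 and 27.4 in CTRL and 37.4 and 69.6 in α-catenin KO. Pcna and Tyms, genes of DNA synthesis, had log2 differences of -0.31 and -0.30. Irf7, an interferon regulatory factor, had a log2 difference of 0.81. None of these genes passed the adjusted test of limma, edgeR or DESeq2. Of the endothelium markers Tek alone was identified and had 89.7 to 177.1 in CTRL and 92.7 and 383.2 in α-catenin KO. Its low CHIR CTRL libraries held 0 to 3.2, so Tek rose with CHIR and is not read as a measure of endothelial cells. Of the podocyte markers Clic5 and Plce1 overlapped between groups. No marker of stroma, leukocytes or tubule had a symbol, and these were not analysed here.

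The largest differences by fold are given with and without CTRL replicate 2. These genes were chosen in the fit that includes that library, so its extreme rank and a smaller median without it follow partly from the choice. The share of all genes with that library as the extreme was not counted. Of the 10 largest higher genes by the naming rule, CTRL replicate 2 was the lowest of the 5 libraries in 8, and their median log2 difference was 1.86 with it and 1.22 without it. Chchd2l had 3295, 226.4 and 1164 in CTRL and 3442 and 3829 in α-catenin KO, so CTRL replicate 1 nearly equalled the KO library of its date. In Ppcs and Pyurf too, CTRL replicate 2 was the lowest and CTRL replicate 1 the highest of the controls. Mmp9, a matrix metalloprotease, had 734.8, 110.0 and 453.7 in CTRL and 1691 and 796.7 in α-catenin KO, and Gdpd2, a glycerophosphodiesterase, had 128.1, 56.6 and 63.5 and then 266.6 and 234.0. Of the 10 largest lower genes, chosen in the same way and with the same limit, CTRL replicate 2 was the highest in 7. Their median was -1.13 with it and -0.65 without it. Those 7 were the small nucleolar RNA Snord13, the ribosomal pseudogene Rpl7-ps8 and the predicted genes Gm10086, Gm17786, Gm46209, Gm8624 and Gm14138. Pseudogenes and predicted genes can share reads with related genes, and their values are uncertain. Gm11131, another predicted gene, had 382.2, 292.7 and 298.6 in CTRL and 108.2 and 223.9 in α-catenin KO. Ctnna1 and Bmp2, a secreted growth factor, were the others of the 10. Bmp2 had 326.6, 272.4 and 592.4 in CTRL and 190.6 and 134.1 in α-catenin KO, with no overlap and a log2 difference of -1.22 ± 0.41 (SE) with CTRL replicate 2 and -1.45 without it. Its adjusted p was 0.70 in limma and 0.31 in DESeq2 with the date block. In low CHIR Bmp2 had 42.8 to 115.4 in CTRL and 79.1 and 100.1 in α-catenin KO. Among genes with a symbol and a mean of at least 100, 309 were higher and 116 lower with no overlap and an unadjusted p under 0.05. Without CTRL replicate 2, 131 and 26 of them kept such a p. All 3924 tested genes with a symbol had 13.2% higher and 6.27% lower at that p.

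Libraries of different dates differed by as much as the groups did. Over 10673 genes with a mean of at least 100, the standard deviation of the log2 difference between α-catenin KO and CTRL was 0.34 on date 1 and 0.51 on date 3, while it was 0.54 between CTRL replicates 1 and 3 and 0.49 between the KO libraries. The differences of the 2 dates had a Pearson correlation of -0.13 across these genes, which is a description, since genes are not replicates. In 28 genes the KO library was more than 1 log2 unit above CTRL on both dates and in 4 more than 1 below, and in 67 the dates differed by more than 1 in opposite directions. The 4 lower genes included Ctnna1 and Snord13, and among the 28 higher genes were Serpinb7, Krt8, Dlx5, Cpm, Notum, Maf and Ctnnd2.

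**Figure D5:**
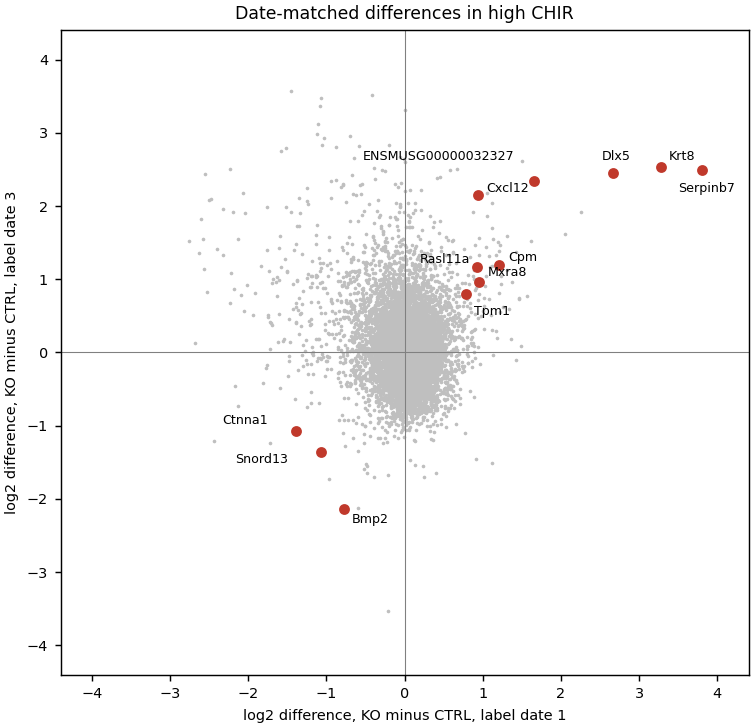
Log2 difference of α-catenin KO minus CTRL in high CHIR on label date 1 (x axis) and label date 3 (y axis), one point for each of 10673 genes with a mean normalised count of at least 100, with 12 genes of the text in red. Ctnna1, Snord13 and Bmp2 lie below 0 on both axes and the other 9 above 0, while the cloud as a whole has a correlation of -0.13.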

How the data were processed

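Messenger RNA of sorted NPCs was amplified with a SMARTer Ultra Low kit and sequenced in pairs of 150 bases. The submitters' processing notes name bcl2fastq, STAR, Subread, featureCounts, Salmon and DESeq2 and the builds GRCm38, GRCh38 and mm10, with no role for each. The deposited values are a signal per gene: read counts that the authors divided by a size factor for each library. Dividing by the smallest value of a library gave whole reads, and these were used for edgeR and DESeq2. The authors' comparison tables hold their fold changes and p-values, which were not used, and gene symbols, which were. Symbols were found for 4316 of 31130 identifiers.

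The main test was limma (3.58.1, R 4.3.3) with trend on log2(normalised count + 1), for 16516 genes with a mean of at least 10 over the 14 libraries of CTRL, α-catenin KO and QCKO, 1 mean per group, with Benjamini-Hochberg adjustment. Calls required an adjusted p under 0.05 together with a log2 difference over 0.5. edgeR 4.0.16 (quasi-likelihood) and DESeq2 1.42.0 (Wald) used the same groups. Differences are on the log2(value + 1) scale, which understates those of low genes. Samples that share a label date were treated as pairs in the blocked fits, where the difference between the KO libraries of dates 1 and 3 correlated with that between the CTRL libraries at 0.20 across genes with a mean of at least 100. The scripts were tested on simulated data. The 190 pairs of libraries included 0 with identical reads.

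The libraries, the 22 gene lists and the tests were chosen with earlier results of these data known. Named were Ctnna1, genes that DESeq2 called, the 10 largest differences each way (symbol given, mean of 100 or more, unadjusted p under 0.05, groups not overlapping), and list members. Alternatives were other filters, pseudocounts, thresholds, normalisation, sets of libraries, tests, the date block and leaving out each library. Fits with both the block or DESeq2 and CTRL replicate 2 left out were added after seeing the data.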

Additional observations from a re-analysis of the deposited data

Results flagged for a closer look

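In 11 of 61 genes, those picked by the naming rule and the tested members of the lists named in full, both date-matched differences of α-catenin KO minus CTRL had one sign in high CHIR and the other sign in low CHIR. That is 18% of them, beside 12.5% of all 16516 genes, and nothing particular to these genes is read from it. Notum had a mean log2 difference of 1.24 in high and -0.99 in low CHIR, where its counts were near 0. Its unadjusted p for the interaction with CHIR in limma was 0.017, and the adjusted p was 1.00. Cpm had 1.20 and -0.09 in turn, Mxra8 1.05 and -0.06, and Rasl11a 0.96 and -0.16, so that in these 3 genes the low CHIR difference was close to 0. Jag1 had -0.64 and 0.48, Pax2 -0.53 and 0.46, and Sp5 -0.61 and 0.89, with at most 0.9 normalised counts of Sp5 in any low CHIR library of these groups. Pkp4 had -0.19 and 0.13, Cdh11 -0.25 and 0.19, Wt1 -0.23 and 0.24, and Tcf7 -0.16 and 0.45. limma called none of the 11 for the interaction, and had 258 of all genes at an unadjusted p under 0.05.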

How the results depend on the processing

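The count of called genes was 0 in limma, and 0 in limma with the label date as replicate block, in edgeR and under each other limma alternative that was planned. It was 4 with DESeq2, 12 with DESeq2 and the replicate block, 7 with DESeq2 and CTRL replicate 2 left out, 23 with both changes, and 1 (Ctnna1) with the limma replicate block and CTRL replicate 2 left out. The count at an unadjusted p under 0.05 was 928, and it was 913 with the replicate block, 1918 without a filter on low values, 288 with only the 5 libraries, and 461 with DESeq2 and CTRL replicate 2 left out. Leaving out 1 library gave 483 to 3177, with 3177 without CTRL replicate 1, 483 without CTRL replicate 2 and 533 without α-catenin KO replicate 3. The interaction with CHIR gave 0 calls except for 1 with the DESeq2 block and CTRL replicate 2 left out. Ctnna1 was negative throughout, and passed at -1.09 in DESeq2, -1.18 with its block, and -1.24 (DESeq2), -1.24 (with block) and -1.23 (limma with block) with CTRL replicate 2 left out. With the genes chosen anew in each fit, the median of the genes raised by CHIR was 0.15 at a mean of at least 100, 0.14 with quantile normalisation and 0.15 with the block and CTRL replicate 2 left out, and 0.14 to 0.33 over the leave-outs. The median of the lowered genes was 0.12 at a mean of at least 100, 0.018 with quantile normalisation and -0.019 to 0.21 over the leave-outs, being negative only without α-catenin KO replicate 1. Among 26 genes of the cadherin, self-renewal, induction and Wnt lists, 17 changed sign under at least 1 setting. The cause of these changes was not tested.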
